A study of Homo sapiens with 3 samples.

Results

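The integrin, collagen and laminin genes measured here encode the main receptors and 2 of the main structural protein families of the extracellular matrix. Members were all probes of the deposited value table whose platform gene symbol begins with ITGA, ITGB, COL, LAMA, LAMB or LAMC and a digit, or is ITGAV, ITGAX, ITGAM, ITGAL or ITGAE. This gave 133 probes of 81 genes, out of 30113 probes of 20046 genes that carried a single gene name. They fall into 17 integrin alpha genes, 8 integrin beta genes, 43 collagen genes, 10 laminin genes and 3 binding partner genes. The symbols of the binding partners match the rule, but they are named for binding integrins and are not integrin chains. These last genes are ITGB1BP1, ITGB1BP2 and ITGB3BP, and they are given apart from the receptor genes. A further 5 probes of 3 pseudogenes were left out.

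RNA came from MDA-MB-231, an established human breast carcinoma line derived from a pleural effusion, which the series describes as deficient in argininosuccinate synthase, ASS1. One group was left untreated for 48 h. A second was kept in 0.3 µg/ml ADI-PEG20 over the same 48 h. In the third, 24 h of ADI-PEG20 preceded 24 h with 420 µg/ml L-arginine, and the unit of its ADI-PEG20 dose (0.3) is truncated in the label. All groups share the same line and the same serum-containing medium. ADI-PEG20 is a pegylated arginine deiminase, which breaks down extracellular arginine. Each group had 1 array, so no difference below could be tested or set against a spread between cultures, and the 3 comparisons share arrays with each other.

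Integrins are heterodimers of an alpha and a beta chain that bind matrix proteins outside the cell and couple to actin through talin and kindlin inside it. Collagens are trimers of chains whose helix needs a regular glycine repeat, and they build fibrils, basement membrane networks, microfibrils and some membrane-anchored forms. Laminins are alpha, beta and gamma trimers of basement membranes. Carcinoma cells of mesenchymal type commonly express several integrins and can secrete their own collagens and laminins.

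Values are deposited probe intensities on a linear scale, and differences are log2 values after background correction, first-named sample minus the second. An intensity over 163 counted as above background. A gene was represented by its brightest probe, and intensities are compared only within a probe. The error attached to a difference, called the probe error, is the SD of the gap between the differences of a gene's 2 brightest probes, divided by the square root of 2. It was 0.22 under ADI-PEG20 (SD over 2599 genes), 0.19 for the arginine array against untreated (2627 genes) and 0.22 between the treated arrays (2603 genes). It covers probes, not cultures. In the series as a whole 11460 genes passed that limit on 1 or more arrays, 9849 of them on every array. All 6 markers of the line (VIM, CD44, AXL, ANXA1, CAV1 and MSN) were above background on all arrays, and their summed intensity was 59482 on the untreated array, 48645 on the ADI-PEG20 array and 57061 on the arginine array. Of 6 luminal or epithelial genes, ESR1, PGR and FOXA1 were not above background on any array, and GATA3 was above it on the ADI-PEG20 array only, at 174. ERBB3 read 184, 170.4 and 173 in the same order, and the epithelial cadherin gene CDH1 read 245, 374 and 293.

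Of the 81 genes, 34 were above background on all 3 arrays, 8 on some and 39 on none. Detected genes comprised 7 of 17 integrin alpha, 5 of 8 integrin beta, 15 of 43 collagen and 5 of 10 laminin genes, with 2 of the 3 binding partners, each counted on all arrays. Transcripts of the classical fibroblast collagens COL1A1 and COL3A1 were not above background on any array. The same held for COL2A1, COL5A2, COL5A3, COL11A1, COL24A1 and COL27A1 of the fibril formers and for COL4A3 and COL4A4 of the basement membrane. It also held for the fibril-associated genes COL9A1, COL9A3, COL14A1, COL19A1, COL20A1, COL21A1 and COL22A1. The remaining collagens below background throughout were COL6A6, COL10A1, COL15A1, COL23A1, COL25A1, COL26A1 and COL28A1. Among integrins, the genes below background on every array were ITGA1, ITGA2B, ITGA8, ITGA9, ITGAL, ITGAM, ITGAX, ITGB3, ITGB6 and ITGB8. Among laminins they were LAMA2, LAMA4, LAMB4 and LAMC3, and ITGB1BP2 was the binding partner below background. A probe below background gives only an upper limit on its transcript. Markers of other cells were few: 2 of 6 fibroblast markers (PDGFRB and LUM), 0 of 4 endothelial markers and 1 of 5 leukocyte markers (CD14) were above background on all arrays. The summed fibroblast marker intensity lay between 1058 and 1115 on the 3 arrays, and DCN, FAP and THY1 were at background throughout.

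The first comparison set cells kept 48 h in ADI-PEG20 against untreated cells. Collagen transcripts were mostly lower: of 16 collagen genes above background on both arrays, 15 were lower and 1 was higher, with a median of -0.39. Laminin transcripts were mostly higher, 4 of 5 with a median of 0.19, and integrin transcripts were evenly split, 6 higher and 6 lower with a median of -0.01. Over all 10028 genes above background on both arrays the median was 0.00, with 4988 higher and 5034 lower. The medians followed across settings were over genes above background on either array, unless a setting changed that filter. Of those, the collagen and laminin medians kept their sign under every setting tried. The integrin median lay within 0.02 of 0 and changed sign between settings. In bulk RNA, fewer cells of a kind and less RNA per cell cannot be told apart.

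Large differences were few. Among 42 member genes that passed the background limit on either array, none was 2-fold or more higher, against 1.75% of 11145 genes in all. A measured difference of 2-fold or more downward was found for 2, COL13A1 and ITGA10, against 2.11% of all genes. At 1.5-fold, 2 members were higher, against 7.96% of all genes, and 6 were lower, against 9.28%. Of these 8, COL4A6 and LAMA1 read no more than 164 on either array, at the background limit. For the 42 members together the median was -0.16, beside -0.00 for the 11145 genes.

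**Figure D1:**
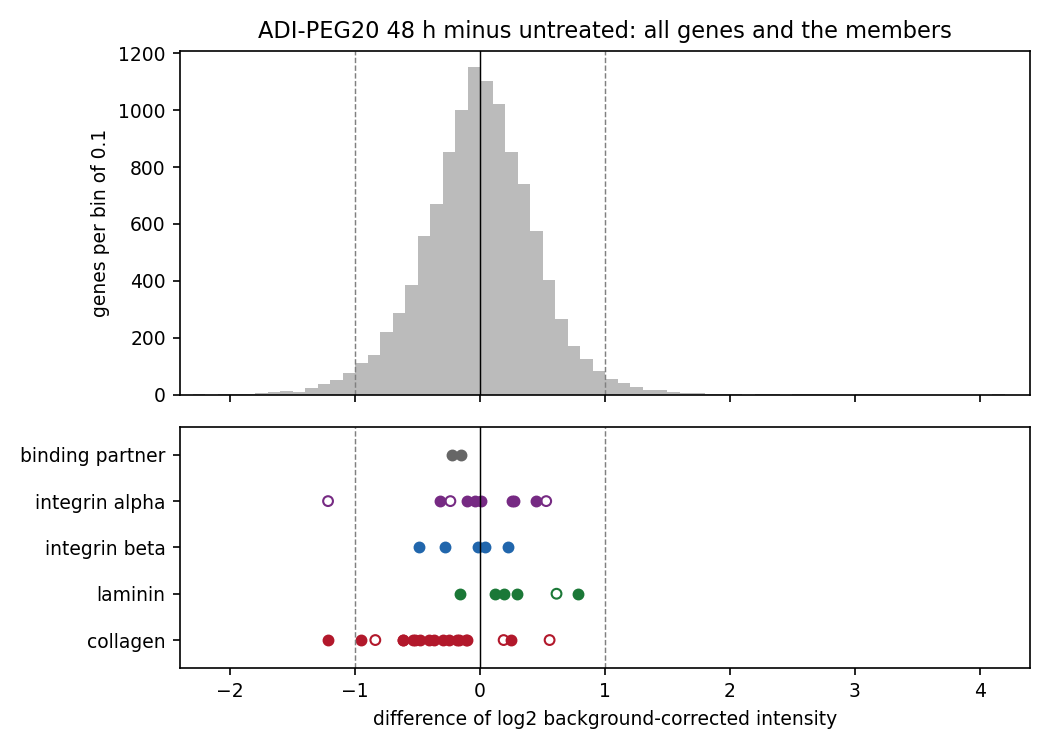
Upper panel, number of genes per bin of 0.1 against the log2 difference of ADI-PEG20 48 h minus untreated, for 11145 genes above background on either array; lower panel, the members by class, filled where above background on both arrays and open where on 1 array only, with dashed lines at 2-fold. Most collagen points lie left of 0, most laminin points right of it, and the integrin points on both sides, and only COL13A1 and ITGA10 lie beyond a 2-fold line.

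Among the collagens the lowest value belonged to COL13A1, which encodes a transmembrane collagen of cell adhesion sites. Its intensity was 969.6 untreated, 485 with ADI-PEG20 and 973 after arginine. The ADI-PEG20 array was the low one and the other two were nearly equal. The difference under ADI-PEG20 was -1.22, a level 2.33-fold lower, and ranked 101st from the lowest of 11145 genes. After arginine the difference from untreated was 0.01. COL13A1 had a single probe, so no second probe bears on this value.

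COL8A1, a short-chain collagen of vascular and subendothelial matrices, had 3 probes above background on all arrays. The brightest read 1441, 804 and 1109 in untreated, ADI-PEG20 and arginine-returned cells, the second 892, 657 and 875, and the third 527, 357 and 581. On each probe the ADI-PEG20 array was lowest. The differences from untreated were -0.95, -0.53 and -0.78 on the respective probes. After arginine they were -0.42, -0.03 and 0.18, so the probes did not share a direction there. Its partner chain COL8A2 read 205, 185 and 224, with a difference of -0.41 under ADI-PEG20 and 0.28 after arginine.

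**Figure D2:**
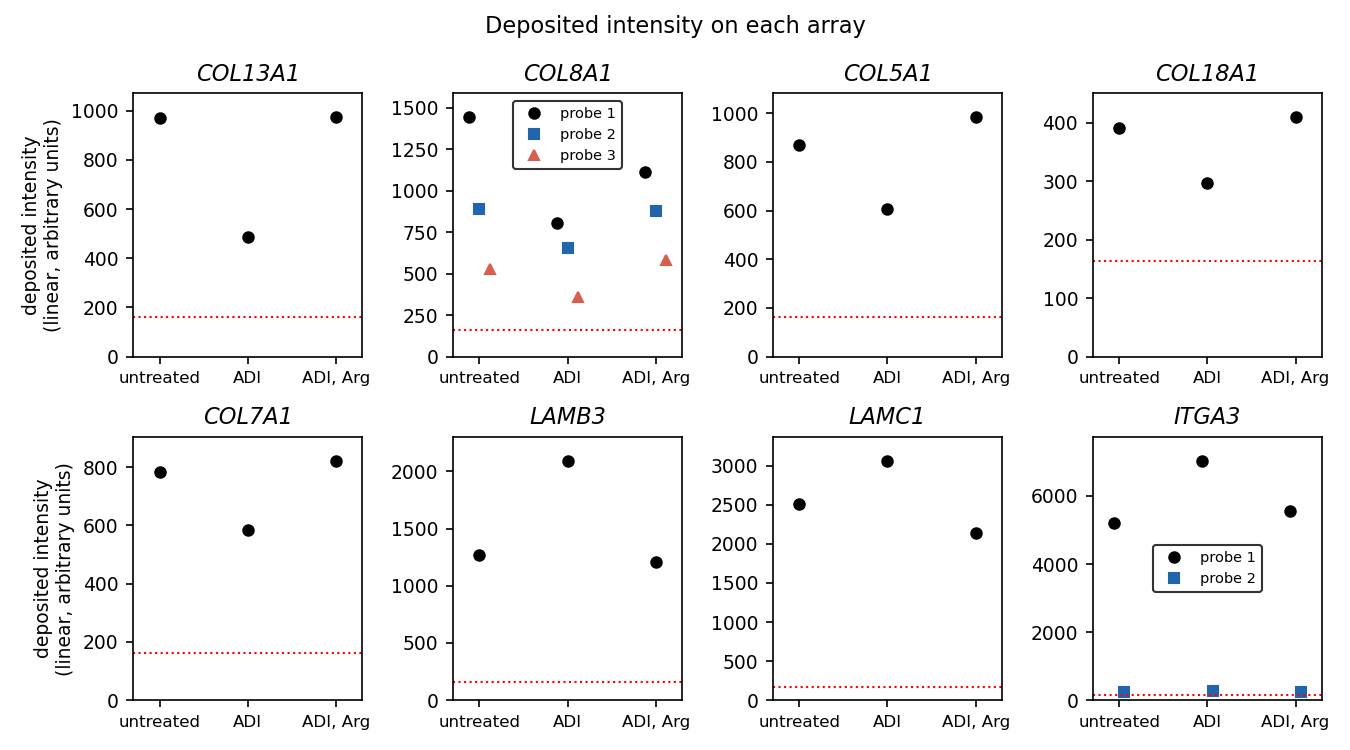
Deposited intensity (vertical axes, linear, arbitrary units, each starting at 0) on the untreated, ADI-PEG20 48 h (ADI) and ADI-PEG20 24 h then arginine 24 h (ADI, Arg) arrays for 8 genes; each point is 1 probe on 1 array, every probe above background on all arrays is shown, and the dotted line is the background limit of 163. COL13A1, COL8A1, COL5A1, COL18A1 and COL7A1 are lowest on the ADI-PEG20 array, and LAMB3, LAMC1 and ITGA3 are highest there.

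Among fibril formers, COL5A1, the chain of type V collagen that nucleates type I fibrils, read 870.5, 608 and 982. Its difference was -0.62 under ADI-PEG20 and 0.20 after arginine. COL11A2, of cartilage-type fibrils, read 169, 178 and 158, close to the limit on every array, and was the collagen above background on both arrays that was not lower under ADI-PEG20, at 0.25. On the mean over its 3 probes that difference was -0.05, but the other probes were below background on all arrays. COL1A2, the second chain of type I collagen, read 163, 169 and 185, so it was above background on the treated arrays only. Against untreated cells its bound was 1.13-fold higher under ADI-PEG20, inside the probe error, and 1.53-fold higher after arginine. A second probe of COL1A2 was below background on all arrays.

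COL18A1, a basement membrane multiplexin and the precursor of endostatin, read 390.3, 297 and 409. Its differences were -0.61 under ADI-PEG20 and 0.10 after arginine. COL7A1, which forms the anchoring fibrils beneath epithelia, read 784, 583 and 821, with differences of -0.52 and 0.08. COL13A1, COL5A1, COL18A1 and COL7A1 thus shared a low ADI-PEG20 array with arginine and untreated arrays that lay closer to each other.

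Type IV collagen is the network former of basement membranes, and its chains COL4A1 and COL4A2 did not share that course. COL4A1 read 543, 511 and 479.9, COL4A2 309.6, 251 and 263, and COL4A5 286, 260.3 and 275. The differences under ADI-PEG20 were -0.12, -0.54 and -0.25, and after arginine they were -0.23, -0.40 and -0.10. All 3 genes therefore read lower on both treated arrays than on the untreated one, and only COL4A2 differed by more than the probe error on each. For COL4A5 the arginine value was inside the probe error. It was 0.15 above the ADI-PEG20 array, and so lay nearer to untreated. COL4A6 read 164 in untreated cells, at the background limit, and lay below it on the treated arrays. Its bound was only 1.02-fold lower on both.

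COL4A1 and COL4A2 lie head to head and their transcripts start on opposite strands a short distance apart. The sequence between the RefSeq starts is shown because the pair shares it, although the 2 chains differed by unequal amounts under ADI-PEG20. It is chr13:110307158-110307283 of GRCh38.p14, 126 bases, on the strand of COL4A2, with a CCAAT box and a GC box in capitals.
COL4A1-COL4A2: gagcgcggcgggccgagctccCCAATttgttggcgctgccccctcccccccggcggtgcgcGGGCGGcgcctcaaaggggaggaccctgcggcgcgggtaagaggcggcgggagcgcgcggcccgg

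Type VI collagen forms beaded microfibrils from 3 different chains. COL6A1 read 388, 356 and 460.4, COL6A3 239, 206 and 258, and COL6A2 202, 184 and 179. Under ADI-PEG20 the differences were -0.19, -0.48 and -0.37. A second probe of COL6A3 gave -0.50. After arginine COL6A1 was at 0.34 and COL6A3 at 0.21, but COL6A2 was at -0.49. The second probe of COL6A3 was at -0.002 there, so its 0.21 rests on the brightest probe. The value of COL6A2 rests on 1 of its 3 probes. With the mean over its probes it was at 0.11 under ADI-PEG20 and 0.36 after arginine. The other probes in that mean read from 137 to 163.2, at the background limit or below it. COL6A5 was above background on the ADI-PEG20 array alone, at 163.3, and carries no usable difference.

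Of the fibril-associated collagens, which coat fibrils or link them to other matrix, COL12A1 read 527, 452 and 610.1. It differed by -0.29 under ADI-PEG20 and 0.27 after arginine. A second probe of COL12A1, below background with ADI-PEG20, was at 0.02 after arginine. COL16A1 read 175, 169 and 179.7, and COL9A2 read 218, 211 and 207. Their differences under ADI-PEG20, -0.17 and -0.11, were inside the probe error.

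**Figure D3:**
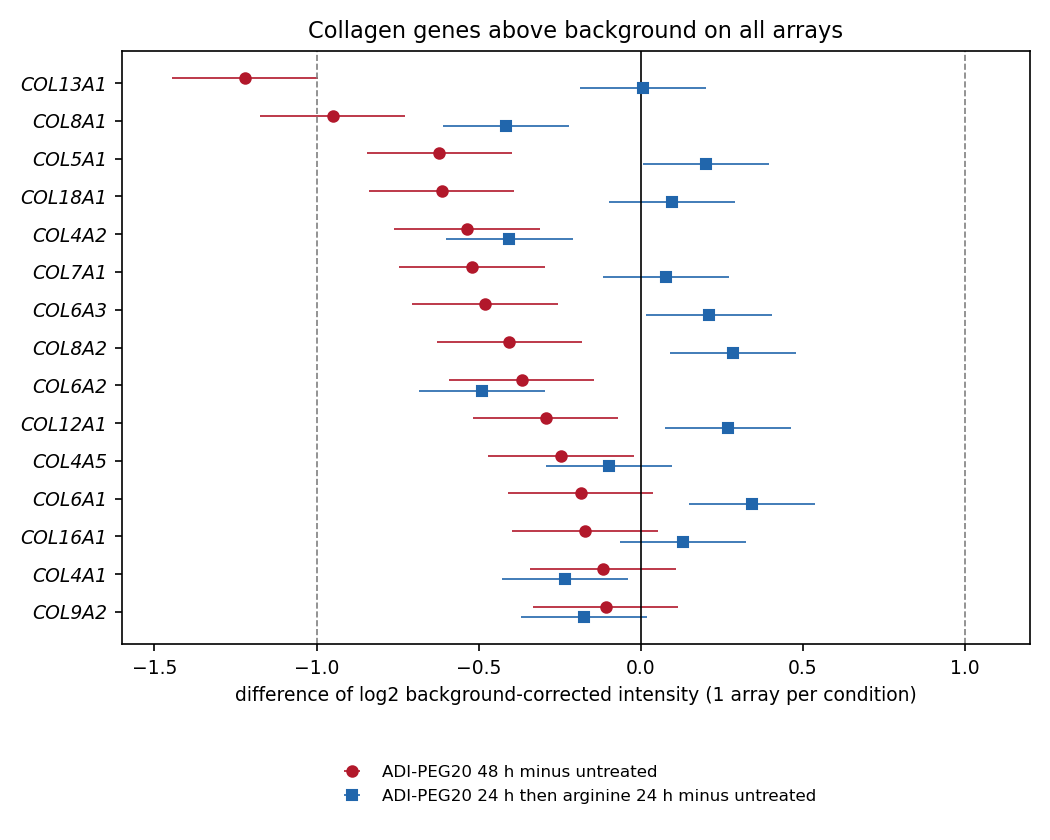
Log2 differences from the untreated array (horizontal axis) for the 15 collagen genes above background on all arrays; red circles are ADI-PEG20 48 h, blue squares ADI-PEG20 24 h then arginine 24 h, bars are the probe error (0.22 and 0.19, the SD of the gap between 2 probes of a gene over the square root of 2), and dashed lines mark 2-fold. All red circles lie below 0, from -1.22 for COL13A1 to -0.11 for COL9A2, and 9 blue squares lie above 0.

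The upstream sequences of COL13A1 and COL5A1, low among the collagens, are shown beside those of 2 laminin genes described next, high among the laminins. COL8A1, at -0.95 under ADI-PEG20, lay below COL5A1 but is not shown. Each printed sequence is 250 bases ending at a RefSeq start, 5′ to 3′ on the gene's strand in GRCh38.p14. Capitals mark matches on either strand, overlaps allowed, to any of 5 motifs. These were the GC box, spelled GGGCGG, and the CCAAT box, searched by the letters of its name. The AP-1 element was searched as TGANTCA. The amino acid response element, which ATF4 binds, was searched as TGATGNAA. The TATA box was searched as TATAAA. The regions are chr10:69801656-69801905 (plus strand), chr9:134641553-134641802 (plus strand), chr1:209652426-209652675 (minus strand) and chr1:183023170-183023419 (plus strand). RefSeq lists 2 starts for COL5A1 and 3 for LAMB3, of which the first listed is given.
COL13A1: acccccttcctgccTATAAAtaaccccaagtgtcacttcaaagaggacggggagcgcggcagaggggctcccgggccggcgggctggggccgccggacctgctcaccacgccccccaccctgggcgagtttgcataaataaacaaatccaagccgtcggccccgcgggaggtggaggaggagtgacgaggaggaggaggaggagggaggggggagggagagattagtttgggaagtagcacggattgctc
COL5A1: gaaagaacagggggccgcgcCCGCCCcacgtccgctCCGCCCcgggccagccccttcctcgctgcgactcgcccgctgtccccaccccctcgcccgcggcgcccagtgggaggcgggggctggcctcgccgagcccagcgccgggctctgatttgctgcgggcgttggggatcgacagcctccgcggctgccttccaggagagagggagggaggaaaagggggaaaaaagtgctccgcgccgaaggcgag
LAMB3: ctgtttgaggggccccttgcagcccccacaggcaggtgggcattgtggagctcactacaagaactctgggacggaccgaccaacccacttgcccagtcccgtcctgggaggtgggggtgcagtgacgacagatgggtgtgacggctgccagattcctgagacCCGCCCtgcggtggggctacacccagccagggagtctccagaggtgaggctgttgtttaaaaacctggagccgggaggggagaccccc
LAMC1: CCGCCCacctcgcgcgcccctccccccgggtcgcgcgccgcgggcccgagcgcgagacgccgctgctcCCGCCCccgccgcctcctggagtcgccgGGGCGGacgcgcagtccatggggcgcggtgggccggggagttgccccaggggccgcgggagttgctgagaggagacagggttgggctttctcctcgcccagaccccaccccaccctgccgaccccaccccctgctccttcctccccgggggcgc

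RefSeq upstream windows were matched for 59 of the 81 genes, as 79 windows. Members on chromosome 8, COL14A1 and COL22A1, were left out of this match, whereas the windows of all genes were not limited by chromosome. The GC box was found in 51.9% of these windows, against 42.6% of 35116 windows of all genes, and the CCAAT box in 24.1% against 32.0%. The AP-1 element was found in 2.53% against 6.57%, the amino acid response element in 2.53% against 3.14% and the TATA box in 11.4% against 10.7%. Among detected members, ITGB5 alone held the amino acid response element and LAMB3 alone the AP-1 element, in a window other than the one printed. These matches describe the letters in the windows and show nothing of a factor's binding.

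Among the laminins, LAMB3, the beta chain of epithelial laminin-332, had the highest difference. It read 1268 untreated, 2091 with ADI-PEG20 and 1206 after arginine. The ADI-PEG20 array was the high one and the other two differed little. The difference was 0.78 under ADI-PEG20, a level 1.72-fold higher, which ranked 430th from the highest of 11145 genes. After arginine it was -0.08. The other 2 probes of LAMB3 were not above background, so this value rests on 1 probe, and the mean over the 3 probes gave 0.35.

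LAMC1, the gamma chain shared by most laminins, read 2515, 3061 and 2139. Its differences were 0.30 under ADI-PEG20 and -0.25 after arginine, each somewhat beyond the probe error. LAMB1, a widely expressed beta chain, read 793, 849.8 and 808, with a difference of 0.12 under ADI-PEG20, and its second probe gave 0.43. LAMB2, the beta chain of muscle and kidney basement membranes, read 442, 488 and 498 and was at 0.19 and 0.23 on the treated arrays. LAMA5, the alpha chain of laminin-511, read 1461, 1319.6 and 1529 and was the laminin gene that was lower under ADI-PEG20, at -0.16, inside the probe error. LAMA1 was above background under ADI-PEG20 only, at 163.6, with a bound of 1.01-fold.

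Integrin alpha chains are given by ligand. Of the laminin receptors, ITGA3, alpha3, read 5194, 7030.2 and 5564. Its difference was 0.45 under ADI-PEG20 and 0.10 after arginine, and a second probe gave 0.49 and 0.03. Both probes were highest on the ADI-PEG20 array. ITGA6, alpha6, read 517, 600.3 and 561 and was at 0.27 and 0.15, whereas its second probe was at -0.08 and 0.15. ITGA7 was above background in untreated cells only, at 169. Its bound was 1.14-fold lower on both treated arrays, inside the probe error.

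Of the collagen receptors, ITGA2, alpha2, read 744, 864 and 697 and was at 0.25 under ADI-PEG20 and -0.11 after arginine. ITGA10, alpha10, read 184 untreated, 145 with ADI-PEG20 and 169 after arginine. Its measured difference of -1.22 under ADI-PEG20 involves an array below background, and the bound was a level at least 1.49-fold lower. ITGA11, alpha11, read 153, 168 and 169. Its bounds were 1.12-fold higher under ADI-PEG20 and 1.13-fold higher after arginine, both inside the probe error. The ITGA10 and ITGA11 readings all lie near the limit of 163.

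The receptors of fibronectin and vitronectin, which recognise the RGD sequence, differed little. ITGA5 read 579, 580.1 and 545, and ITGAV read 868, 849 and 796. The differences were 0.00 and -0.04 under ADI-PEG20 and -0.11 and -0.15 after arginine, all inside the probe error. ITGA4, which binds VCAM1 and fibronectin, read 200.3, 185 and 204 and was at -0.32 under ADI-PEG20 and 0.06 after arginine. ITGAE, the E-cadherin receptor of mucosal lymphocytes, read 1689.5, 1577 and 1545, with differences of -0.11 and -0.14.

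Among beta chains, ITGB1, the partner of most alpha chains named above, read 12824, 13207 and 13124, with a difference of 0.04 under ADI-PEG20. Its second probe gave 0.13. ITGB5, a partner of alpha V, read 3487, 2888 and 3605 and was at -0.28, with -0.37 and -0.32 on 2 other probes. All 3 of its probes were lowest on the ADI-PEG20 array. ITGB4, which pairs with alpha6 in hemidesmosomes, read 419, 334 and 411 and was at -0.49, with -0.15 on a second probe.

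The leukocyte-type chain ITGB2 read 1133, 1302 and 1121 and was at 0.22 under ADI-PEG20, with 0.33 on a second probe. Its alpha partners ITGAL, ITGAM and ITGAX were below background throughout. Of the 5 leukocyte markers, PTPRC, CD3E and LYZ were below background on all arrays, CD14 read 392, 362 and 389.9, and CSF1R read 197, 145 and 209. ITGB7 read 193, 192 and 215 and was at -0.02 under ADI-PEG20 and 0.38 after arginine. ITGB1BP1, a cytoplasmic inhibitor of beta1 integrin activation, was at -0.15 under ADI-PEG20, from 4685 to 4220.3, and at -0.46 on a second probe. ITGB3BP, also a centromere protein, read 492, 438 and 431 and was at -0.23 and -0.26.

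**Figure D4:**
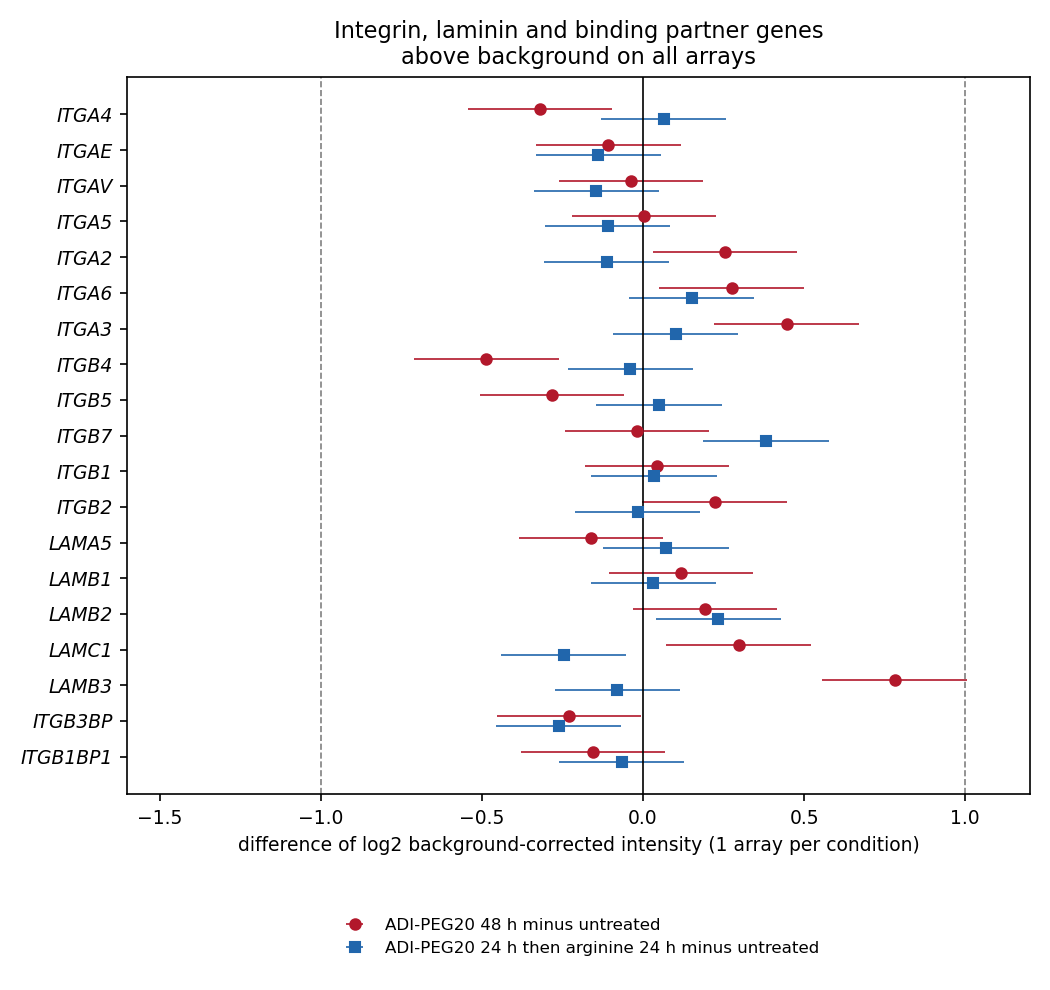
Log2 differences from the untreated array (horizontal axis) for the 12 integrin, 5 laminin and 2 binding partner genes above background on all arrays; red circles are ADI-PEG20 48 h, blue squares ADI-PEG20 24 h then arginine 24 h, bars are the probe error (0.22 and 0.19), and dashed lines mark 2-fold. LAMB3 at 0.78 and ITGA3 at 0.45 lie farthest right under ADI-PEG20, and ITGB4 at -0.49 farthest left.

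In 10 member genes a second probe above background on both arrays could be set beside the brightest one under ADI-PEG20. The sign was the same in 9 of them, ITGA6 being the exception, and the gap between the probes had a median of 0.20 and reached 0.42 in COL8A1. For the arginine array against untreated the sign was the same in 6 of 11.

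The second comparison set the arginine-returned cells, with 24 h of ADI-PEG20 and then 24 h of arginine, against untreated cells. Members lay close to their untreated values: 20 of 40 were higher and 20 lower, with a median of -0.01, the same as over all 11089 genes to this precision (-0.01). None was 2-fold or more higher, against 0.37% of all genes, and none lower, against 0.334%. At 1.5-fold, COL1A2 was higher, against 2.67% of all genes, and COL4A6 lower, against 2.7%. COL1A2 was just below background untreated and read 185 after arginine, a bound of 1.53-fold. COL4A6 read 164 untreated, at the background limit, with a bound of 1.02-fold. Among genes above background on both arrays, 9 of 15 collagens were higher, with a median of 0.08. The laminins had 3 of 5 higher with a median of 0.03, and the integrins 6 of 13 with a median of -0.02. Among members above background on all arrays, the largest differences were COL6A2 at -0.49, COL8A1 at -0.42 and COL4A2 at -0.40. ITGB7 at 0.38 and COL6A1 at 0.34 followed, all beyond the probe error of 0.19. The value of COL8A1 was not shared by its other probes, which gave -0.03 and 0.18. The mean over probes put COL6A2 at 0.36, but its other probes were at the background limit or below it.

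The third comparison set the arginine-returned cells against cells kept in ADI-PEG20. These differ in the length of ADI-PEG20 exposure as well as in arginine. Collagens were mostly higher in the arginine-returned cells, 13 of 16 above background on both arrays, with a median of 0.53, beside -0.00 over all 10028 genes. Of the 5 laminins 3 were lower, with a median of -0.09, and of 13 integrins 8 were lower, with a median of -0.03. COL13A1 was higher by 1.23 and was the member past 2-fold upward, against 2.04% of 11141 genes, and no member was 2-fold lower, against 1.88%.

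At 1.5-fold, 7 of 40 members were higher, against 9.87% of all genes. They were COL13A1, ITGA10, whose ADI-PEG20 reading was below background and whose bound was only 1.14-fold, COL5A1 at 0.82, COL18A1 at 0.71, COL6A3 and COL8A2 at 0.69 each, and COL7A1 at 0.60. Downward, 2 members passed 1.5-fold, against 8.92% of all genes: LAMB3 at -0.86 and COL11A2, which was below background after arginine and was at least 1.34-fold lower. LAMC1 was at -0.54, ITGA2 at -0.37 and ITGA3 at -0.34. COL12A1 was at 0.56, COL8A1 and COL6A1 at 0.53 each, ITGB4 at 0.45 and ITGB5 at 0.33.

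Other genes of the same processes were read from lists of matrix glycoproteins, basement membrane partners and matrix receptors, collagen processing and integrin adaptors. Of 13 matrix glycoprotein genes above background under ADI-PEG20 and in untreated cells, 9 were lower and 4 higher, with a median of -0.40, and none was past 2-fold. MATN2, a matrilin, was at -0.80, ECM1 at -0.72 and CCN2, the connective tissue growth factor, at -0.62. After arginine the median was -0.07, with MATN2 at -0.27, the fibulin-family gene EFEMP1 at -0.21 and TGFBI at -0.17. Of 22 collagen processing genes 15 were lower and 7 higher under ADI-PEG20, with a median of -0.11.

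In that list P4HA1, a prolyl hydroxylase chain needed for a stable collagen helix, read 1613, 1089 and 2022, with differences of -0.62 under ADI-PEG20 and 0.35 after arginine. SEC24D, a coat protein of the vesicles that export procollagen, was at -0.59, and P3H4, a subunit of a lysyl hydroxylase complex, was at 0.71. After arginine PLOD2, a lysyl hydroxylase, was at 0.39 and FKBP14, a collagen prolyl isomerase, at 0.37. Of 12 basement membrane partners and receptors 6 were higher and 6 lower under ADI-PEG20, with NTN4, a netrin that binds laminin, at 0.70, the collagen receptor kinase DDR1 at 0.59 and the syndecan SDC2 at -0.47. After arginine DDR1 was at 0.39, AGRN, agrin, at 0.35 and SDC2 at 0.27.

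Of 32 integrin adaptor and focal adhesion genes 15 were higher and 17 lower under ADI-PEG20, with a median of -0.01. The actin crosslinker gene ACTN4 was at -0.84, RAP1B, a small GTPase of integrin activation, at 0.56 and VCL, vinculin, at -0.50. After arginine the median was -0.01, with the kindlin gene FERMT2 at -0.43, TGFB1I1 at 0.35 and PTK2, focal adhesion kinase, at -0.32. Beside the collagens, 5 of the 6 markers of the line were also lower on the ADI-PEG20 array, with a median of -0.28 over the 6. AXL was the exception, at 3719 untreated and 3742 with ADI-PEG20. Of the 6 fibroblast markers 4 were at background, and the 2 detected ones went opposite ways under ADI-PEG20, LUM from 292 to 379 and PDGFRB from 201 to 182. Their part in the collagen values was not tested.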

How the data were processed

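Per the labels' protocols, biotin-labelled RNA was read on Illumina bead arrays with 1 colour. The authors deposited the intensity of 47231 probes on a linear scale, with GenomeStudio named, without version, per the submitters' processing notes. How they were normalized is not given in the sources used here. Intensities ran from 105.8 to 28717 over the 3 arrays, and each array had a median of 149.3. The same values recurred across arrays, such as 870.5 for COL5A1 untreated and for AGRN with ADI-PEG20. The arrays were thus on a common scale, so a shift in total RNA could not be seen. Medians near 0 over all genes carry no information on such a shift. A second table of values before normalization was not used, because its 6 value columns match no single sample label. The intensity was corrected by normexp (background mode 137, SD 8.74, exponential mean 425), with log2 taken after an offset of 16. The limit was the mode plus 3 SDs, 163. A further 8 probes with several genes and 17110 with none listed were not named. A gene entered a comparison if above the limit on at least 1 of the 2 arrays. For a gene above it on 1 array, the fold is a bound, against the lowest value above the limit on the dim array or its own value if higher. Such a bound makes no allowance for the probe error or for noise in the background.

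Precision is limited by the number of arrays, and 1 array per condition allowed no test. All members above background on all arrays are named with values, as are partly detected ones with a bound of 1.2-fold or more. The remaining partly detected ones were named after their values were seen. For other lists the 3 largest differences are named in the first 2 comparisons. Members and lists were chosen with earlier results of these data known. The steps were tested on simulated data, with changes of 2-fold or more put only into genes well above the background limit. That test does not bear on dim members or on smaller differences. Sequences are from RefSeq (GRCh38.p14). Python 3.11.15, numpy 2.4.6, pandas 2.3.3, scipy 1.17.1 and matplotlib 3.10.9 were used.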

Additional observations from a re-analysis of the deposited data

How the results depend on the processing

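Settings tried were no background correction, an offset of 50, a limit of 5 background SDs, genes above background on both arrays only, no filter on dim probes, the mean over a gene's probes, removal of the binding partners and median centring. The number of members 2-fold or more lower under ADI-PEG20 was 2, but 0 without background correction and 1 with the offset of 50 or with genes above background on both arrays, where ITGA10 left the count. COL13A1 was at -1.22, at -1.15 with the offset of 50 and just short of 2-fold without background correction. The collagen median under ADI-PEG20 was -0.37 over the 19 genes above background on either array and -0.11 with all 43 collagens, most of them at background. For the arginine array minus ADI-PEG20 the collagen median was 0.48, and 0.21 without background correction and 0.078 with all collagens. With the stricter limit the number of collagens higher under ADI-PEG20 went from 1 to 0. Of the other class medians and counts, 281 values stayed within the probe error or within 1.5 times the count. For single genes 885 values stayed within the probe error and 56 did not. The stricter limit, both filter settings and removal of the binding partners could not change a single gene's value. Many of these 885 values were therefore fixed in advance, as were some of the class values. The sign of COL11A2 and COL6A2 turned with the mean over probes in all 3 comparisons. For the arginine array against untreated, 3 integrin beta genes also turned, each by less than the probe error. ITGB1 went from 0.03 to -0.01, ITGB4 from -0.04 to 0.14 and ITGB2 from -0.02 to 0.10. Without background correction the counts of all genes past 2-fold under ADI-PEG20 were 52 higher and 50 lower, in place of 195 and 235. Background correction enlarged the differences of dim members. Under ADI-PEG20, ITGA10 was at -1.22 with it and -0.34 without it, and COL6A2 at -0.37 and -0.14. Small differences of dim members therefore carry little weight. No paired analysis was possible because each condition had 1 array and no result comes from a test.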
